A study of Mus musculus with 6 samples.

Results

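The genes described here make, carry, sense and break down prostaglandins: Pla2g4a, which releases the precursor fatty acid; the cyclooxygenases Ptgs1 and Ptgs2; the PGE2 synthases Ptges, Ptges2 and Ptges3; the carrier Slco2a1; the PGE2 receptor Ptger4; and the breakdown enzymes Hpgd and Ptgr1. They were taken by symbol from the deposited gene tables, and all 10 were found among 55416 gene identifiers. All 10 were also among the 16975 genes with enough counts to be tested. RNA was measured in organoids of the mouse small intestine, which are epithelial structures kept in a gel and started from the gut epithelium of mice aged 4 to 8 weeks. Every group, the control included, shared 1 genotype: Rosa26-rtTA Tg/Tg, a doxycycline-dependent transactivator, together with Col1A1-TetO-OSKM Tg/Tg, a cassette for Oct4, Sox2, Klf4 and Myc that the transactivator switches on. The transactivator stands at the broadly active Rosa26 locus, so induction is not aimed at 1 epithelial cell type. The groups were a control labelled as such, 0.1 µg/ml doxycycline for 3 days and 0.5 µg/ml doxycycline for 3 days, with 2 libraries each. The series calls these biological replicates and does not say whether they were separate mice, organoid lines or cultures, so the p-values measure the spread between these libraries, which may be technical.

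Prostaglandins are short-lived lipid signals. A phospholipase frees arachidonic acid from membranes, a cyclooxygenase turns it into the unstable intermediate PGH2, and a terminal synthase turns that into PGE2 or another prostanoid. PGE2 acts on nearby cells through EP receptors, is taken up by the carrier encoded by Slco2a1, and is inactivated inside the cell by the dehydrogenase encoded by Hpgd and then by reductases such as the one encoded by Ptgr1. In the intestine PGE2 is known for protecting the epithelium and for its part in repair after injury, and Hpgd is known as a gene of mature surface epithelium.

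The libraries held 45.3 to 72.5 × 1e+06 estimated counts, and 3 counts in a library, the floor used here, corresponded to 0.0414 to 0.0687 CPM. CPM are counts per 1e+06, after scaling each library by its total and a TMM factor, and they are used to compare 1 gene between groups. TPM, which also divide by transcript length, are used to compare genes with each other. The 4 factor genes were 18.8 to 2579.8-fold higher at 0.5 µg/ml than in control and 3.35 to 3.65-fold higher at 0.5 than at 0.1 µg/ml. The 9 epithelial markers checked, Epcam, Cdh1 and Vil1 among them, summed to 3056 and 3059 TPM in control, 3589 and 3533 TPM at 0.1 µg/ml and 4391 and 4559 TPM at 0.5 µg/ml. At 0.5 µg/ml against control 5 of the 9 were higher and 4 lower by edgeR, beside 34.4% higher and 33.1% lower over all tested genes. The larger sum came mostly from the keratin genes Krt8, at 1866 and 1949 TPM at 0.5 µg/ml, against 764 and 742 TPM in control, and Krt19, at 1283 and 1315 TPM, against 701 and 721 TPM. Epcam was 1.33-fold lower, Krt18 1.83-fold lower, and the intestinal transcription factor genes Cdx1 and Cdx2 were 2.96-fold and 3.03-fold lower. Fibroblast markers summed to at most 1.98 TPM, endothelial markers to at most 1.41 TPM and immune markers to at most 17.3 TPM in any library. In organoids measured in bulk, fewer cells of a type and less RNA per cell cannot be told apart.

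At 0.5 µg/ml, Ptgs1, Ptgs2 and Slco2a1 rose, Hpgd and Ptgr1 fell, and Pla2g4a, Ptges, Ptges2, Ptges3 and Ptger4 did not pass the test against control. These 5 calls among 10 genes stand beside a background of 67.5% of all tested genes called, with 34.4% higher and 33.1% lower. At 0.1 µg/ml against control the calls were 5 higher, namely Ptgs1, Ptgs2, Slco2a1, Hpgd and Ptgr1, and 1 lower, Pla2g4a, beside a background of 34.6% of tested genes (20.8% higher and 13.8% lower). At 0.5 against 0.1 µg/ml the calls were 5 higher, namely Ptgs1, Ptgs2, Slco2a1, Pla2g4a and Ptges3, and 3 lower, namely Hpgd, Ptgr1 and Ptges2, beside 58.9% of tested genes (29.8% higher and 29.1% lower). The median log2 fold change of the 10 genes was 0.09, 0.13 and 0.44 in these comparisons, against -0.004, 0.017 and -0.017 for all tested genes. All calls are from edgeR's quasi-likelihood test with Benjamini-Hochberg adjustment over the 16975 genes at 0.05, two-sided. With 2 libraries against 2 an exact test of a single gene could not go below p = 0.333, so the calls rest on a spread pooled over genes. Without the first 0.1 µg/ml library, the deepest, 3800 in place of 5881 genes were called at 0.1 µg/ml. The comparisons against control share the control libraries, and each dose's libraries also enter the comparison between doses.

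**Figure D1:**
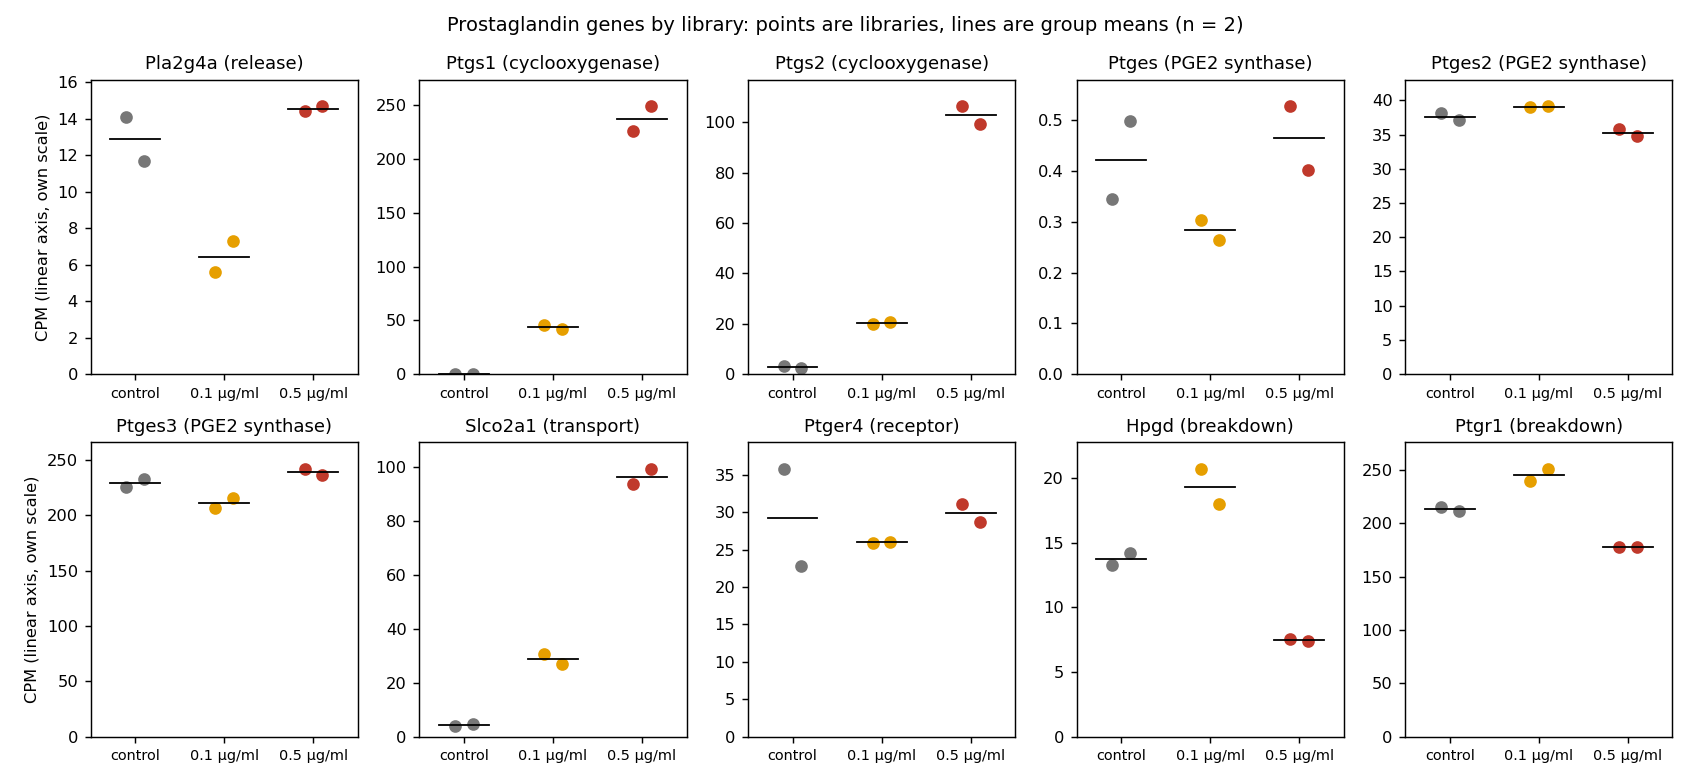
Each panel shows 1 gene's CPM in the 6 libraries on its own linear axis starting at 0, with points for libraries and lines for the mean of the 2 libraries of a group. Ptgs1, Ptgs2 and Slco2a1 climb at each dose, Pla2g4a is lowest at 0.1 µg/ml, and Hpgd and Ptgr1 are highest at 0.1 and lowest at 0.5 µg/ml.

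Release of the precursor was represented by Pla2g4a (ENSMUSG00000056220), which encodes the cytosolic phospholipase A2 that supplies arachidonic acid to the cyclooxygenases. Only RNA was measured, not release itself. Pla2g4a had 14.1 and 11.7 CPM in control, 5.59 and 7.30 CPM at 0.1 µg/ml and 14.4 and 14.7 CPM at 0.5 µg/ml. Both 0.1 µg/ml libraries lay below all 4 others, and the 0.5 µg/ml libraries lay above both control libraries by little. Against control, the gene fell at 0.1 µg/ml by 1.02 ± 0.133 on the log2 scale (± SE), which is 2.02-fold lower (edgeR adjusted p = 0.000303), and this was the 576th lowest log2 fold change of 16975. It was 2.28-fold higher at 0.5 than at 0.1 µg/ml (edgeR adjusted p = 4.05e-05). Against control the 0.5 µg/ml value did not pass the test, with a log2 fold change of 0.17 and a 95% interval from -0.11 to 0.46 (edgeR adjusted p = 0.25). The cyclooxygenases and the phospholipase that feeds them therefore had different orders over the groups: Ptgs1 and Ptgs2 were lowest in control, and Pla2g4a was lowest at 0.1 µg/ml.

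Both cyclooxygenases rose at each dose. Ptgs1 (ENSMUSG00000047250), which encodes cyclooxygenase 1, known in many tissues as the constitutive form, had 0.324 and 0.219 CPM in control, from 16 and 11 counts. It had 46.0 and 41.7 CPM at 0.1 µg/ml, from 3334 and 2047 counts, and 226 and 249 CPM at 0.5 µg/ml, from 9857 and 12973 counts. The groups were far apart, with the nearest libraries of neighbouring groups separated by more than the whole spread within any group. The rise over control was 160.5-fold at 0.1 µg/ml (log2 fold change 7.33 ± 0.139, edgeR adjusted p = 5.85e-10) and 867-fold at 0.5 µg/ml (9.76 ± 0.126, edgeR adjusted p = 1.57e-11). Among all tested genes these were the 84th and the 91st highest log2 fold changes. Both SE come from the F statistic and are smaller than the counting error of 16 and 11 control counts alone. They therefore understate the uncertainty of the folds over control. Between the doses the gene was 5.40-fold higher at 0.5 than at 0.1 µg/ml (edgeR adjusted p = 7.34e-09).

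Ptgs2 (ENSMUSG00000032487) encodes cyclooxygenase 2, the form known to be induced by growth factors, cytokines and injury. It was already measurable in control, at 3.12 and 2.57 CPM, and stood at 19.8 and 20.7 CPM at 0.1 µg/ml and at 106 and 99.2 CPM at 0.5 µg/ml. Again the groups did not overlap. The rise over control was 7.10-fold at 0.1 µg/ml (log2 fold change 2.83 ± 0.0884, edgeR adjusted p = 1.81e-08) and 36.1-fold at 0.5 µg/ml (5.17 ± 0.0825, edgeR adjusted p = 4.92e-11), and the 0.5 µg/ml libraries were 5.08-fold above the 0.1 µg/ml ones (edgeR adjusted p = 7.11e-09). The folds between the doses, 5.40 for Ptgs1 and 5.08 for Ptgs2, were much closer than the folds over control.

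Per transcript length, the form that prevailed differed between control and both doses. In control Ptgs2 was ahead, with 0.83 and 0.71 TPM against 0.14 TPM of Ptgs1 in each library, so that Ptgs1 made up 14.4% and 16.5% of the cyclooxygenase TPM. Ptgs1 stood at 26.5 and 24.9 TPM and Ptgs2 at 5.2 and 5.51 TPM at 0.1 µg/ml. Their values at 0.5 µg/ml were 119 and 144 TPM for Ptgs1 and 26.5 and 25.7 TPM for Ptgs2. Ptgs1 thus made up 83.6% and 81.9% of the cyclooxygenase TPM at 0.1 µg/ml, and in the 0.5 µg/ml libraries 81.9% and 84.9%, a share that overlapped between the doses. The control value of Ptgs1 rests on 27 counts in all, which limits the precision of its share there.

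Because the 2 cyclooxygenase genes had such different control levels, their promoters are shown side by side. Each is the RefSeq window of 300 bases (GRCm38.p6) from 250 before to 50 after the annotated start, on the gene's strand, 5′ to 3′. Capitals mark matches, on either strand, to 6 short motifs: the E-box that Myc binds, the cores of the octamer, Sox and Klf motifs, the core of the cAMP response element and the TATA box.
Ptgs1 chr2:36230176-36230475(+): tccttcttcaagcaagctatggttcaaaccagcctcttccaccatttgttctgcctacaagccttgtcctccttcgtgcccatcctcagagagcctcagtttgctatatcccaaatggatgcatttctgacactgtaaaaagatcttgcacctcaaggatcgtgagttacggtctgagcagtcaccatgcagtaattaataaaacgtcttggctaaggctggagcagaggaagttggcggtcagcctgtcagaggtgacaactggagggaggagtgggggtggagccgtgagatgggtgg
Ptgs2 chr1:150099781-150100080(+): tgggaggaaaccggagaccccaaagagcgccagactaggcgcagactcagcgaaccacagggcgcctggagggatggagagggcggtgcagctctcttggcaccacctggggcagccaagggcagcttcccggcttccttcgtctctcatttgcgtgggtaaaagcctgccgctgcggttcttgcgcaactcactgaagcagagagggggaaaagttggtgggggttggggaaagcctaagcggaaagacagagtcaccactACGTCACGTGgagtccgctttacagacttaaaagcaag
The Ptgs1 window held none of the 6 motifs. The Ptgs2 window held a cAMP response element core and an E-box that overlap by 2 bases, from 12 to 21 bases after the start site, counting the start site as 0. The share of all 32851 RefSeq promoter windows that held each motif gives its background. The E-box, searched as CACGTG, was present in 7.15% of these windows. The octamer core, searched as ATGCAAA, was present in 4.63% of windows, and the Sox core, for which the letters CATTGT were searched, in 12.6%. For the Klf core the letters were CNCACCC, and 30.9% of windows held it. The cAMP response element core was searched as TGACGT and found in 7.51% of windows. The TATA box was searched as TATAAA and found in 13.6% of windows. GC content was 50.7% in the Ptgs1 window and 59.3% in the Ptgs2 window, against a median of 52.7% over all windows, and the Ptgs1 window held 6 CpG against 16 in the Ptgs2 window. Among the 11 windows of the 10 genes, the E-box was found in Ptgs2 and Ptges2, the octamer core in Ptgr1 and the Sox core in Ptges, Ptges2 and Hpgd. The Klf core was found in Ptges, Ptgr1, Slco2a1 and 1 of 2 windows of Pla2g4a, and the TATA box in Slco2a1, Hpgd and the other window of Pla2g4a. A match says only that these letters are present in the window.

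Ptgs1 is also known as a gene of tuft cells, chemosensory cells of the intestinal epithelium, and part of the tuft list moved with it. The summed level of 14 tuft markers was 3.82 and 5.67 TPM in control, 79.6 and 81.2 TPM at 0.1 µg/ml and 211 and 216 TPM at 0.5 µg/ml. One gene, Avil, which encodes the actin-binding protein advillin, made up most of it, with 72.8 and 72.9 TPM at 0.1 µg/ml and 197 and 202 TPM at 0.5 µg/ml. Of the 7 markers tested at 0.5 µg/ml against control, 5 rose and 1 fell, beside 34.4% and 33.1% of all tested genes. Those that rose included Pou2f3 (5.94-fold), the transcription factor that specifies tuft cells, and Dclk1 (42.6-fold). Trpm5, the cation channel of tuft cell taste signalling, fell 5.59-fold (edgeR adjusted p = 0.000169). Chat had no count in any library, Gnat3 had 1 count over all 6, and Plcb2, Gfi1b and Il25 had at most 3 counts in a library. Of the 14 markers, 9 stayed under 1 TPM in both libraries at 0.5 µg/ml, against 13 in control. What part tuft cells had in the Ptgs1 level was not tested.

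A predicted gene on the opposite strand within Ptgs1, Gm43621, had no count in control, 42 and 27 counts at 0.1 µg/ml and 129 and 165 counts at 0.5 µg/ml. The libraries were strand-specific, but how strand was treated when reads were counted is not known from the labels or files, so reads of this pair may not be fully told apart. Its counts were small beside those of Ptgs1. The same holds for Ptgs2os, whose start lies beside that of Ptgs2 on the other strand and which had at most 17 counts in a library.

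None of the 3 PGE2 synthase genes, which act after the cyclooxygenases, passed the test against control at either dose, and between the doses Ptges3 was slightly higher and Ptges2 slightly lower. Ptges (ENSMUSG00000050737) encodes the microsomal synthase that is known to be induced together with cyclooxygenase 2 in inflammation. It was near the floor throughout, with 17 and 25 counts in control, 22 and 13 counts at 0.1 µg/ml and 23 and 21 counts at 0.5 µg/ml. These were 0.344 and 0.499 CPM in control, 0.303 and 0.265 CPM at 0.1 µg/ml and 0.527 and 0.403 CPM at 0.5 µg/ml, and the control and 0.5 µg/ml libraries overlapped. Its log2 fold change at 0.5 µg/ml against control was 0.13 with a 95% interval from -0.63 to 0.88 (edgeR adjusted p = 0.751), so these counts leave a wide range of changes in either direction. On the TPM scale Ptges ran the other way, at 0.18 and 0.71 TPM in control, 0.34 and 0.24 TPM at 0.1 µg/ml and 0.17 and 0.13 TPM at 0.5 µg/ml, and with so few counts neither order is firm.

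Ptges3 (ENSMUSG00000071072), the cytosolic synthase that is also a co-chaperone of Hsp90, was the most abundant of the 10 genes by TPM in all 3 groups. It had 226 and 233 CPM in control, 206 and 216 CPM at 0.1 µg/ml and 242 and 237 CPM at 0.5 µg/ml. Its log2 fold change at 0.5 µg/ml against control was 0.06, with a 95% interval from -0.03 to 0.15 (edgeR adjusted p = 0.22). The 0.5 µg/ml libraries were higher than the 0.1 µg/ml ones by 0.18 on the log2 scale (edgeR adjusted p = 0.0043), and at 0.1 µg/ml the value against control was -0.12 and just missed the threshold (edgeR adjusted p = 0.0515). The call between the doses was lost in all 3 fits of TPM (adjusted p from 0.111 to 0.18), and the call against control at 0.1 µg/ml was made under 5 alternatives (adjusted p from 0.0154 to 0.0358), the fit without the second 0.1 µg/ml library among them. A near copy, the pseudogene Ptges3-ps, took 98 to 137 counts per library, and reads shared by the pair were divided by estimate.

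Ptges2 (ENSMUSG00000026820), the other membrane-associated synthase, had 38.1 and 37.1 CPM in control, 39.1 CPM in both 0.1 µg/ml libraries and 35.8 and 34.8 CPM at 0.5 µg/ml. Its log2 fold change at 0.5 µg/ml was -0.09 against control, with a 95% interval from -0.20 to 0.01 (edgeR adjusted p = 0.106). Against 0.1 µg/ml it fell by 0.15 on the log2 scale (edgeR adjusted p = 0.02). That call was lost under 8 of 15 alternatives, and leaving out any 1 of the 4 treated libraries ended it (adjusted p from 0.0526 to 0.121), while upper quartile scaling and all 3 fits of TPM made a call against control (adjusted p from 0.0056 to 0.0172). Summed, the 3 synthases stood at 181 and 189 TPM in control, 161 and 173 TPM at 0.1 µg/ml and 173 and 174 TPM at 0.5 µg/ml. Ptges3 made up 81.4 to 85.0% of that sum and Ptges at most 0.377%.

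**Figure D2:**
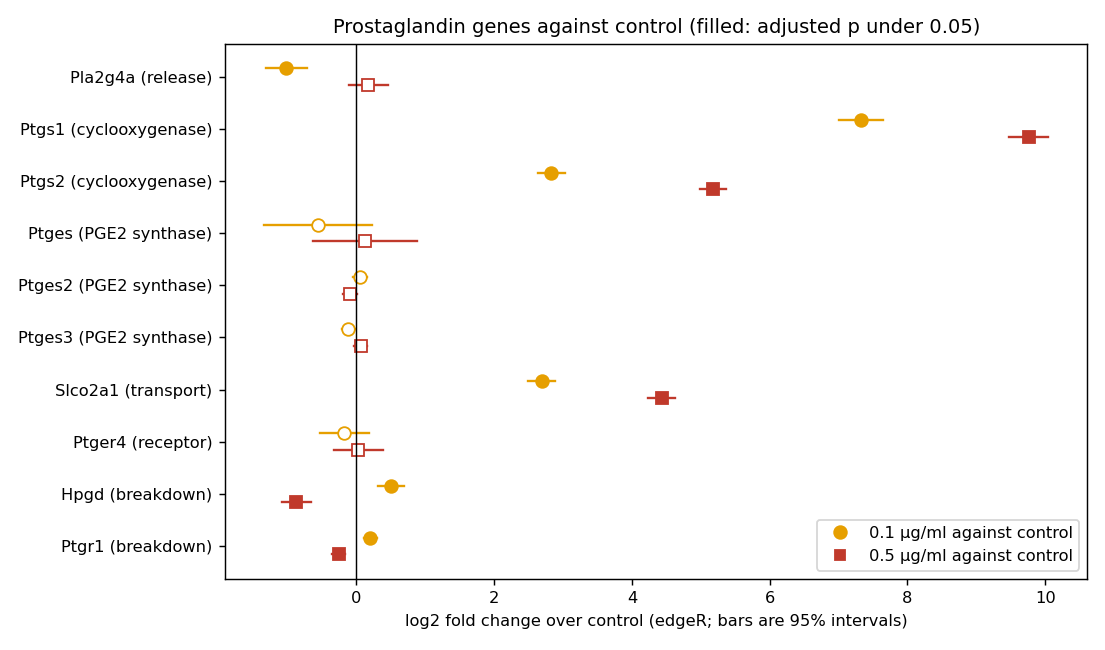
Log2 fold change over control of the 10 genes at 0.1 µg/ml (circles) and 0.5 µg/ml (squares), with 95% intervals from edgeR. Filled symbols passed the test at an adjusted p under 0.05. The intervals of Ptgs1 are too narrow for its few control counts. Ptgs1, Ptgs2 and Slco2a1 lie to the right at both doses, the 3 PGE2 synthases and Ptger4 lie near 0, and Hpgd and Ptgr1 change side between the doses.

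Transport was represented by Slco2a1 (ENSMUSG00000032548), which encodes the prostaglandin transporter, a carrier that takes PGE2 from outside the cell to the enzymes that break it down. It had 4.19 and 4.75 CPM in control, 30.5 and 27.0 CPM at 0.1 µg/ml and 93.8 and 99.3 CPM at 0.5 µg/ml. No 2 groups overlapped. The rise over control was 6.44-fold at 0.1 µg/ml (log2 fold change 2.69 ± 0.0879, edgeR adjusted p = 2.47e-08) and 21.6-fold at 0.5 µg/ml (4.43 ± 0.0852, edgeR adjusted p = 1.37e-10). Between the doses it was 3.35-fold higher at 0.5 than at 0.1 µg/ml (edgeR adjusted p = 3.79e-08). The uptake carrier thus rose in the same comparisons as the cyclooxygenases, while the dehydrogenase that acts after uptake fell at 0.5 µg/ml.

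The Slco2a1 promoter window is printed because this gene rose at both doses, as Ptgs2 did, and its window holds other motifs. It is the RefSeq window of GRCm38.p6 on the gene's strand, with capitals for the motif letters given above.
Slco2a1 chr9:103008237-103008536(+): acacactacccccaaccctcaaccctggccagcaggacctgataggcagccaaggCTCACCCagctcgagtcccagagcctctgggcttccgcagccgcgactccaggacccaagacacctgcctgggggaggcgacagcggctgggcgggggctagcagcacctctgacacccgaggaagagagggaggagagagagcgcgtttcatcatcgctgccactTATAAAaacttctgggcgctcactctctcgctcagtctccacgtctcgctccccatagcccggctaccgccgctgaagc
It held a Klf core from 195 to 189 bases before the start site and a TATA box from 29 to 24 bases before it, and no E-box or cAMP response element core. Its GC content was 64.0%, with 18 CpG.

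Among the receptors, Ptger4 (ENSMUSG00000039942), which encodes the EP4 receptor that raises cAMP in response to PGE2, made no call in any comparison. It had 35.7 and 22.8 CPM in control, 25.9 and 26.0 CPM at 0.1 µg/ml and 31.1 and 28.7 CPM at 0.5 µg/ml. The 2 control libraries bracketed all 4 treated ones. The log2 fold change at 0.5 µg/ml against control was 0.03, with a 95% interval from -0.33 to 0.39 (edgeR adjusted p = 0.88). Either control library decided the direction: without the first it was 0.39 (adjusted p = 0.00138) and without the second -0.29 (adjusted p = 0.00494). The value at 0.1 µg/ml against control was -0.48 without the second control library (adjusted p = 0.000639), and it also passed in the unfiltered fit (-0.19, adjusted p = 0.0285). Between the doses the value was 0.20 (edgeR adjusted p = 0.299), and it passed the test without the first control library (adjusted p = 0.0101), without the second (0.0146), in the unfiltered fit (0.00591) and in the fit of these 2 groups alone (0.0183). Ttc33, which overlaps Ptger4 on the other strand, had 326 to 687 counts per library.

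Breakdown moved in both directions. Hpgd (ENSMUSG00000031613) encodes the dehydrogenase that carries out the first step of PGE2 inactivation. It had 13.3 and 14.2 CPM in control, 20.7 and 17.9 CPM at 0.1 µg/ml and 7.58 and 7.40 CPM at 0.5 µg/ml. Each group was separate from the others, with the 0.1 µg/ml libraries highest and the 0.5 µg/ml libraries lowest. Gm45540, which overlaps Hpgd on the same strand, had 16 to 71 counts per library in the same order of groups, and reads shared by the pair were divided by estimate. Hpgd rose 1.41-fold over control at 0.1 µg/ml (log2 fold change 0.50 ± 0.0848, edgeR adjusted p = 0.00158). It fell at 0.5 µg/ml by 0.87 ± 0.0928 on the log2 scale against control, which is 1.83-fold lower (edgeR adjusted p = 1.89e-05), and it was 2.58-fold lower than at 0.1 µg/ml (edgeR adjusted p = 1.11e-06). These calls held under all 15 alternatives, with adjusted p of at most 0.0489 for the rise and 0.00173 for the fall against control.

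Ptgr1 (ENSMUSG00000028378) encodes a reductase that acts on the product of Hpgd and also inactivates leukotriene B4. It had 215 and 211 CPM in control, 240 and 251 CPM at 0.1 µg/ml and 178 CPM in both 0.5 µg/ml libraries. Its order over the groups was that of Hpgd, with smaller folds. It rose 1.15-fold over control at 0.1 µg/ml (edgeR adjusted p = 0.0038), at 0.5 µg/ml it fell to 1.20-fold below control (edgeR adjusted p = 0.000293), and at 0.5 it was 1.38-fold lower than at 0.1 µg/ml (edgeR adjusted p = 7.96e-06). The rise at 0.1 µg/ml was lost without the second 0.1 µg/ml library (adjusted p = 0.0543) and in the unfiltered fit of TPM (adjusted p = 0.0825).

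Markers of enterocytes, the absorptive cells in which Hpgd is best known in the intestine, moved with these 2 genes. The 14 markers summed to 3237 and 3925 TPM in control, 5381 and 4195 TPM at 0.1 µg/ml and 2006 and 1981 TPM at 0.5 µg/ml. Of the 14, 9 were higher and 2 lower at 0.1 µg/ml than in control, none passed as higher and 9 as lower against control at 0.5 µg/ml, and all 14 were lower at 0.5 than at 0.1 µg/ml. The background in the first of these comparisons was 20.8% higher and 13.8% lower, in the second 34.4% higher and 33.1% lower, and in the third 29.8% higher and 29.1% lower. The sucrase-isomaltase gene Sis, for example, was 1.66-fold higher at 0.1 µg/ml (edgeR adjusted p = 0.00119) and 2.21-fold lower at 0.5 than at 0.1 µg/ml (edgeR adjusted p = 2.69e-05). The part of enterocytes in the Hpgd and Ptgr1 levels was not tested.

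The Hpgd promoter window is printed as that of the breakdown gene with the largest change. It is again the RefSeq window of GRCm38.p6 on the gene's strand, with the same capitals.
Hpgd chr8:56294302-56294601(+): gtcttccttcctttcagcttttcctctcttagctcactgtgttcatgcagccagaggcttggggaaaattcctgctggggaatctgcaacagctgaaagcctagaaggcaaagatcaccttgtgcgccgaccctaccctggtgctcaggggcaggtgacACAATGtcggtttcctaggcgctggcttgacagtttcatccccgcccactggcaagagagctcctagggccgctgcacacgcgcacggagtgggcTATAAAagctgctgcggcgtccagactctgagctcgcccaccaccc
It held a Sox core, matched on the other strand from 91 to 86 bases before the start site, and a TATA box from 4 to 9 bases after it. Neither an octamer core nor an E-box was found in this window.

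Set against each other per library, the cyclooxygenases and Hpgd changed places. Ptgs1 and Ptgs2 together stood at 0.97 and 0.85 TPM in control, 31.7 and 30.4 TPM at 0.1 µg/ml and 146 and 169 TPM at 0.5 µg/ml, while Hpgd stood at 10.2 and 11.2, 15.6 and 13.8, and 5.45 and 5.49 TPM. In control Hpgd was therefore 10.5 and 13.2 times the cyclooxygenase TPM. At 0.1 µg/ml the cyclooxygenases were 2.03 and 2.20 times Hpgd, although Hpgd was then at its highest, and at 0.5 µg/ml they were 26.8 and 30.9 times Hpgd. On the log2 scale the ratio averaged -3.56 ± 0.229 in control, 1.08 ± 0.0844 at 0.1 µg/ml and 4.85 ± 0.145 at 0.5 µg/ml (SD, n = 2 each). The difference from control was 4.64 at 0.1 µg/ml and 8.41 at 0.5 µg/ml. It is given as a description with no test, since it sums genes that were each tested above, and TPM of RNA are not enzyme activities or amounts of PGE2.

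**Figure D3:**
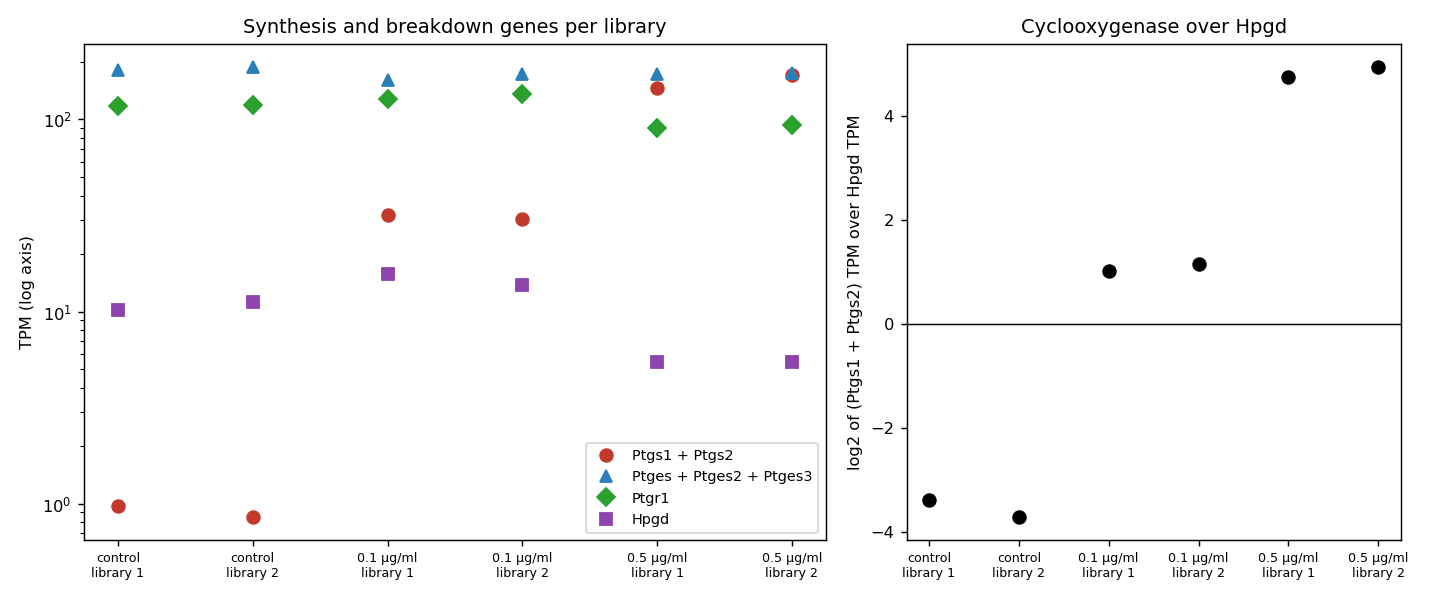
Left, TPM per library on a log axis for the cyclooxygenases (circles), the PGE2 synthases (triangles), Ptgr1 (diamonds) and Hpgd (squares); right, log2 of the cyclooxygenase TPM over the Hpgd TPM per library. The cyclooxygenases lie below Hpgd in control and come close to the PGE2 synthases at 0.5 µg/ml, below them in both libraries. The ratio goes with dose from below to above 0.

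The size of that difference depended on which genes were set against each other. With Ptgs2 alone over Hpgd it was 6.05 at 0.5 µg/ml, and with Hpgd and Ptgr1 together as breakdown it was 7.84. Ptgr1 was the second most abundant of the 10 genes by TPM in control, at 117 and 118 TPM, so the sum of both breakdown genes, 127 and 129 TPM in control, 144 and 149.8 TPM at 0.1 µg/ml and 95.6 and 98.6 TPM at 0.5 µg/ml, was mostly Ptgr1. The cyclooxygenases were below this sum in control and at 0.1 µg/ml and above it at 0.5 µg/ml, in both libraries of each group.

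The order of the 10 genes by TPM shows the same exchange. In control it ran from Ptges3 through Ptgr1, Ptges2, Ptger4, Hpgd, Pla2g4a, Slco2a1, Ptgs2 and Ptges to Ptgs1. The ranges of the 2 libraries overlapped between Ptger4 and Hpgd, between Slco2a1 and Ptgs2 and between Ptgs2 and Ptges. At 0.1 µg/ml the order was Ptges3, Ptgr1, Ptges2, Ptgs1, Hpgd, Ptger4, Ptgs2, Slco2a1, Pla2g4a and Ptges, with overlap between Ptges3 and Ptgr1 and between Ptgs2 and Slco2a1. At 0.5 µg/ml it was Ptges3, Ptgs1, Ptgr1, Ptges2, Ptgs2, Slco2a1, Ptger4, Pla2g4a, Hpgd and Ptges, with overlap between Ptges2 and Ptgs2. Ptgs1 stood at place 10 in control, 4 at 0.1 µg/ml and 2 at 0.5 µg/ml, and Hpgd at place 5, 5 and 9. Ptges3 kept place 1 in all 3 groups, at 146 and 148 TPM at 0.5 µg/ml, close to the 119 and 144 TPM of Ptgs1.

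Whether a gene moved by the same fold in both steps of dose was tested as the log2 change from 0.1 to 0.5 µg/ml minus the log2 change from control to 0.1 µg/ml. Of the 10 genes 2 were higher and 5 lower in this contrast, beside a background of 27.0% of tested genes called (9.77% higher and 17.2% lower), or 4583 genes, against 2195 without the first 0.1 µg/ml library. Ptgs1 moved less in the second step than in the first by 4.89 on the log2 scale, written as -4.89 ± 0.204 (edgeR adjusted p = 8.61e-07). Over 14 alternatives this value ran from -5.17 to -2.24, so the direction held but the size did not. Its SE is too small for the few control counts. Slco2a1 likewise moved less, at -0.94 ± 0.132 (edgeR adjusted p = 0.000763), a call that was lost in fits of log2(TPM + 1) (adjusted p = 0.244 and 0.408). For Ptgs2 the difference was -0.48 ± 0.131 (edgeR adjusted p = 0.0227). That call was lost without the second control library, without either 0.1 µg/ml library or without the second 0.5 µg/ml library (adjusted p from 0.0827 to 0.125) and in the fit of log2(TPM + 0.1) (-0.39, adjusted p = 0.178), and the value was 0.25 and not called in fits of log2(TPM + 1) with and without a filter (adjusted p = 0.232 and 0.347). The control level enters the first step, and the control levels of these 3 genes were low, most of all that of Ptgs1.

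In the same contrast the genes that turned round between the doses were Pla2g4a, Hpgd and Ptgr1. Pla2g4a, lower at 0.1 µg/ml and back near control at 0.5 µg/ml, had a difference of 2.21 ± 0.237 (edgeR adjusted p = 0.000174), the 267th highest of 16975. Hpgd, higher at 0.1 µg/ml and lower at 0.5 µg/ml, had -1.87 ± 0.146 (edgeR adjusted p = 3.75e-05), and Ptgr1 had -0.67 ± 0.0693 (edgeR adjusted p = 0.000148). Ptges3 had 0.30 ± 0.0726 (edgeR adjusted p = 0.0137), a call that was lost without the first 0.1 µg/ml library (adjusted p = 0.115) and in all 3 fits of TPM (adjusted p from 0.0868 to 0.166). Ptges, Ptges2 and Ptger4 did not pass, with 95% intervals from -0.12 to 2.59, from -0.38 to -0.02 and from -0.24 to 1.00.

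Other genes of the pathway were read from fixed lists, without a test of any list. The counts of each list at 0.5 µg/ml against control stand beside the 34.4% higher and 33.1% lower over all tested genes. Of 15 other genes for lipases that release fatty acids, 6 were higher and 5 lower at 0.5 µg/ml than in control. The median log2 fold change was 0.63, against -0.004 for all tested genes. The 15 are phospholipase genes except for a monoacylglycerol lipase gene, which was among the 6 higher. Pla2g4c, a relative of Pla2g4a, had 0.446 and 0.319 CPM in control, 3.23 and 3.26 CPM at 0.1 µg/ml and 11.7 and 11.6 CPM at 0.5 µg/ml, and rose 30.4-fold (edgeR adjusted p = 4.2e-09). Pla2g4e had 1 count in each control library and 107 and 124 counts at 0.5 µg/ml, a ratio of 120.0 with an exact 95% counting interval from 32.8 to 997. Pla2g4f, at no more than 17 counts in a library, rose 5.78-fold (edgeR adjusted p = 0.0163). The secreted form Pla2g2f went the other way and was 4.34-fold lower at 0.5 µg/ml (edgeR adjusted p = 1.58e-05). Even at 0.5 µg/ml Pla2g4c, at 4.27 and 4.38 TPM, was below the 5.76 and 6.05 TPM of Pla2g4a.

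The other terminal synthases, which turn PGH2 or its kin into other prostanoids, split. Of 7 listed 6 were tested, and 3 were higher and 2 lower at 0.5 µg/ml than in control, with a median of 0.90. Akr1b3, an aldo-keto reductase that can form PGF2 alpha, had 47.8 and 46.6 CPM in control, 65.8 and 65.2 CPM at 0.1 µg/ml and 114 and 112 CPM at 0.5 µg/ml. It rose 2.39-fold at 0.5 µg/ml (edgeR adjusted p = 5.14e-09) and 1.39-fold at 0.1 µg/ml (edgeR adjusted p = 2.66e-05), and its groups did not overlap. Tbxas1, the thromboxane synthase gene, rose 3.15-fold at 0.5 µg/ml to 3.02 and 2.88 CPM, against 0.932 and 0.937 CPM in control (edgeR adjusted p = 1.96e-05). Ptgis, the prostacyclin synthase gene, had 1 count in each control library and 12 in each 0.5 µg/ml library, a ratio of 12.5 with an exact 95% counting interval from 3.09 to 109. Lower were Cbr1, a carbonyl reductase that can convert PGE2, at 1.59-fold (edgeR adjusted p = 4.44e-05), and Prxl2b, a reductase that can form PGF2 alpha from PGH2, at 1.84-fold (edgeR adjusted p = 0.000265).

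Among the other carriers, 3 of the 5 tested were higher and 2 lower at 0.5 µg/ml than in control, with a median of 0.89. Abcc4, an export pump that can carry PGE2 out of the cell, stood at 28.7 and 31.3 CPM at 0.5 µg/ml, against 15.5 CPM in both control libraries, a 1.94-fold rise (edgeR adjusted p = 4.15e-06). Its value at 0.1 µg/ml against control did not pass the test (log2 fold change -0.10, edgeR adjusted p = 0.401). Of the relatives of Slco2a1, Slco4a1 rose 1.85-fold (edgeR adjusted p = 5.49e-06) and Slco3a1 rose 12.0-fold to 1.97 and 1.71 CPM (edgeR adjusted p = 5.19e-05), while Slco2b1 was 4.14-fold lower (edgeR adjusted p = 6.37e-08). The rise of Slco2a1 was therefore not shared by all members of its family on the list.

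Receptors other than Ptger4 were low. Of 8 listed 4 were tested, and 3 were higher at 0.5 µg/ml than in control, with a median of 1.97 that includes a gene with 2 control counts. Ptger1, the EP1 receptor gene, rose 2.52-fold to 1.96 and 2.07 TPM at 0.5 µg/ml, against 0.75 and 0.97 TPM in control (edgeR adjusted p = 1.46e-05). Ptger3, the EP3 receptor gene, rose 6.12-fold to 0.70 and 1.00 TPM, against 0.12 and 0.18 TPM in control (edgeR adjusted p = 2.13e-05). Tbxa2r, the thromboxane receptor gene, had 17 and 21 counts at 0.5 µg/ml and 1 in each control library, a ratio of 19.7 with an exact 95% counting interval from 5.10 to 169. Ptger2, which encodes EP2, the other cAMP-raising PGE2 receptor, had 1 count over all 6 libraries, and Ptgfr had none. Ptger4, at 10.2 to 10.7 TPM at 0.5 µg/ml, was above the TPM of each of these receptors in every library.

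The other breakdown enzymes did not fall as a group against control. Of the 6 found and tested 2 were higher and 1 lower at 0.5 µg/ml than in control, with a median of -0.01. Ptgr2, a reductase that like Ptgr1 acts on the product of Hpgd, was 1.27-fold lower (edgeR adjusted p = 0.000151). Cbr3 rose 1.77-fold (edgeR adjusted p = 0.000195) and Cyp4f14, a fatty acid and eicosanoid hydroxylase, rose 1.19-fold (edgeR adjusted p = 0.0343). Of the 6, 3 were higher and none lower at 0.1 µg/ml than in control, beside 20.8% higher and 13.8% lower over all tested genes. None was higher and 4 were lower at 0.5 than at 0.1 µg/ml, beside 29.8% higher and 29.1% lower. Cyp4f14 shows the higher level at 0.1 µg/ml most clearly, at 96.0 and 101 CPM in control, 256 and 202 CPM at 0.1 µg/ml and 118 and 116 CPM at 0.5 µg/ml.

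**Figure D4:**
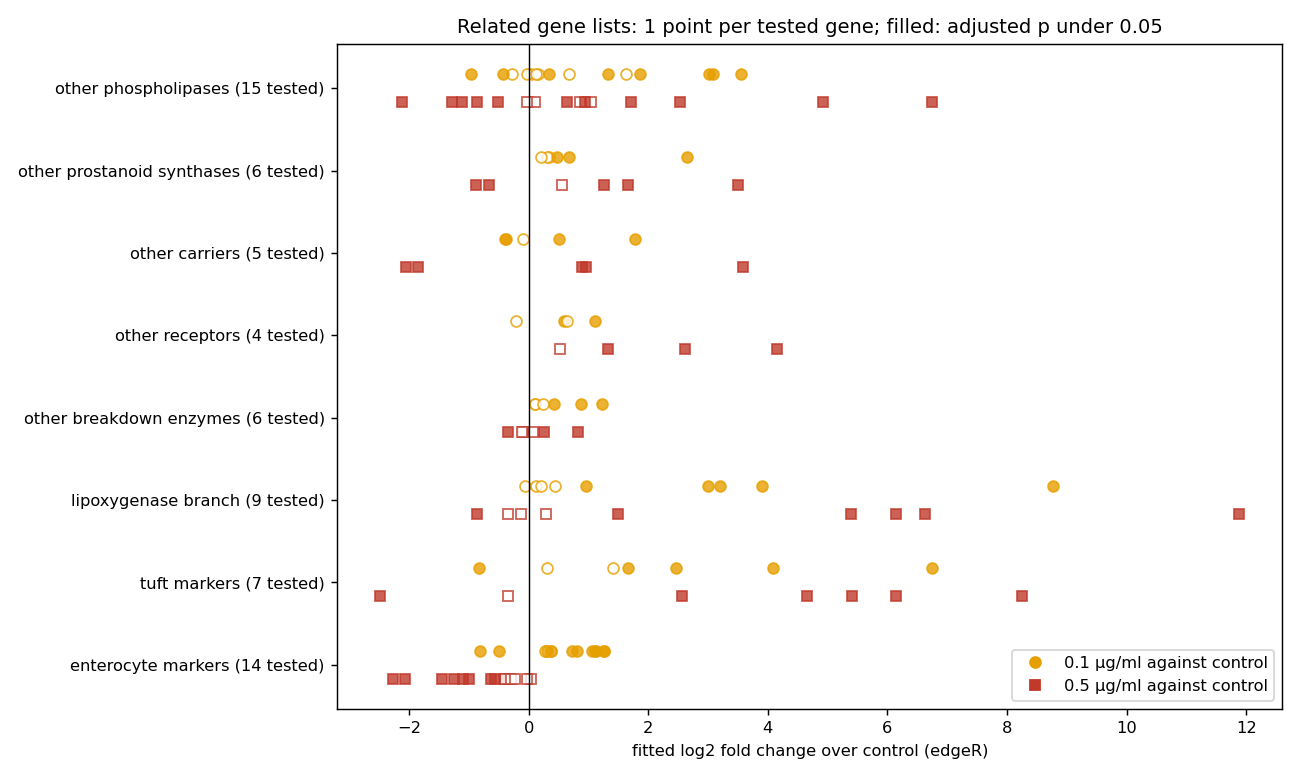
Fitted log2 fold change over control of each tested gene in 6 pathway lists and 2 marker lists, at 0.1 µg/ml (circles) and 0.5 µg/ml (squares); filled symbols passed the test, and values of genes with 0 to 3 control counts depend on the fit. Phospholipases, synthases and carriers spread to both sides at 0.5 µg/ml. The phospholipase list, which includes a monoacylglycerol lipase gene, had 6 higher and 5 lower. None of the 14 enterocyte markers passed the test as higher at that dose.

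Genes that cAMP signalling is known to raise through CREB in other tissues were read as a neighbour of the EP4 pathway. Of 13 listed 10 were tested, and at 0.5 µg/ml 5 were higher and 3 lower than in control, with a median of 0.20. Against control at 0.1 µg/ml, 1 was higher, 1 lower and 8 did not pass, beside 20.8% higher and 13.8% lower over all tested genes. The largest rise was that of Nr4a1, an immediate-early nuclear receptor gene, at 21.4 and 15.6 CPM in control, 34.2 and 32.0 CPM at 0.1 µg/ml and 102 CPM in both 0.5 µg/ml libraries. It rose 5.51-fold at 0.5 µg/ml (edgeR adjusted p = 3.68e-08). Nr4a3 rose 2.26-fold (edgeR adjusted p = 0.00435) and the phosphatase gene Dusp1 rose 2.08-fold (edgeR adjusted p = 2.8e-05), while Sik1 and Per1 rose 1.18-fold and 1.12-fold (edgeR adjusted p = 0.0208 and 0.0343). Fos was 1.90-fold lower at 0.5 µg/ml (edgeR adjusted p = 0.00145), with control libraries at 317 and 203 CPM that differed widely, and Ppargc1a was 2.76-fold lower (edgeR adjusted p = 5.99e-06).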

How the data were processed

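Poly-A RNA from 6 organoid libraries was sequenced from strand-specific preparations, per the labels' protocols. Per the submitters' processing notes, the tools included RSEM 1.3.3 and STAR 2.7.3a, with reads checked and trimmed by FastQC and Trim Galore, and GRCm39 and mm10 are both named as builds. Which build, annotation and strand setting the tables rest on is not stated in these sources. The authors deposited RSEM expected counts, which can be fractional, and TPM, which add up to 1e+06 in every library and so hold no depth. RSEM divides reads shared between similar genes by estimate. Of the 55416 identifiers, 52083 (94.0%) had a symbol in the GENCODE M21 table.

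Expected counts were rounded. Genes were kept by filterByExpr by group, leaving 16975 genes with 99.96% of the counts. One edgeR 4.0.16 quasi-likelihood fit (R 4.3.3) held all 6 libraries, with TMM factors from 0.964 to 1.04, no covariate and 3 residual degrees of freedom. Standard errors come from the F statistic and intervals are 95%. For large changes from few control counts, as in Ptgs1, these standard errors and intervals are too small. Replicates differed by more than sampling noise, with a chi-square per degree of freedom of 7.57 to 8.60. The alternatives used DESeq2 1.42.0 and limma 3.58.1 and are given in the closing section. Floors of 3 counts and counting intervals cover counting error only, since reads without molecular identifiers are not independent molecules.

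The 10 genes, the lists, the markers and the motifs were chosen with earlier results of these data known. From the other lists, the genes named are those called at 0.5 µg/ml against control where at most 8 were called, and otherwise the 4 largest changes among the called; 2 such genes are not reported here. Overlapping genes, markers, abundant lipase genes and untested receptors named beside a result were chosen for their position, level or role, in part after their values were seen. Promoter windows and coordinates are from RefSeq (GRCm38.p6), matched by symbol for 10 of 10 genes.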

Additional observations from a re-analysis of the deposited data

How the results depend on the processing

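Of 582 alternative values of single-gene log2 fold changes, 537 were counted as the same, 24 lost a call, 18 gained one and 3 turned round. A change of direction was counted as turning round only where the main or the alternative value was called. Uncalled values that changed sign are therefore among the 537, such as Ptges at 0.5 µg/ml against control, which ranged from -0.30 to 0.39. The 3 that turned round were Ptger4 at 0.5 µg/ml against control without the second control library (-0.29, against 0.39 without the first) and Ptgs2 in the contrast of dose steps in fits of log2(TPM + 1) with and without a filter (0.25 in both). A pseudocount of 1 TPM shrinks the change of genes that are low in control, such as Ptgs1, whose log2 fold change at 0.5 µg/ml was then 6.86 in place of 9.76. The numbers of the 10 genes called kept within 1.5 times of 5, 6 and 8 under every alternative; in the contrast of dose steps 7 became 4 in fits of log2(TPM + 1) with and without a filter. Over all genes, calls at 0.1 µg/ml against control numbered 5881, against 3505, 3508 and 2520 in limma fits of log2(TPM + 1), log2(TPM + 0.1) and unfiltered log2(TPM + 1); calls in the contrast of dose steps numbered 4583, against 2746, 2528 and 1525. The cause was not tested, beyond the smaller number of genes in the filtered fits. Leaving out 1 library gave 3800 to 5248 calls at 0.1 µg/ml and 2195 to 4715 in the contrast of dose steps, with both lowest values without the first 0.1 µg/ml library, the deepest; the 10 genes then gave 5 to 6, 6 to 7, 7 to 9 and 5 to 7 calls. A lone library was assumed to vary like the other groups. The log2 ratio of cyclooxygenases over Hpgd, 8.41 at 0.5 µg/ml over control, was 7.65 on CPM, 6.05 with Ptgs2 alone and 7.84 over Hpgd and Ptgr1. With the replicate number as a block the 10 genes gave 5, 6, 8 and 7 calls, as without it, and all genes 11162, 5265, 9607 and 4039. The numbers were not taken to pair libraries: deviations of same-numbered libraries correlated at -0.110 (0.1 µg/ml and control), 0.114 (0.5 µg/ml and control) and -0.0167 (0.5 and 0.1 µg/ml). The fit of 2 groups alone was not run for the contrast of dose steps, which needs 3. Depth limits Ptges and the other genes with under about 30 counts in a library.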

Other observations

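The lipoxygenases, some of which use the same fatty acids as the cyclooxygenases, were read with the leukotriene genes as a branch beside the prostaglandin genes. Of 14 genes of the lipoxygenase and leukotriene branch 9 were tested, and 5 were higher and 1 lower at 0.5 µg/ml than in control, a share called close to the 67.5% of all tested genes. Alox12b, an epidermal lipoxygenase of the skin barrier, stood at 0.59 and 0.67 TPM in control, 4.83 and 4.98 TPM at 0.1 µg/ml and 56.1 and 60.0 TPM at 0.5 µg/ml. The groups were far apart, and the rise over control was 98.5-fold at 0.5 µg/ml and 7.97-fold at 0.1 µg/ml (edgeR adjusted p = 5.34e-12 and 1.07e-08). Its partner in the skin, Aloxe3, rose 70.3-fold at 0.5 µg/ml (edgeR adjusted p = 1.28e-09), to 7.25 and 8.19 TPM, against 0.13 and 0.10 TPM in control.

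Alox8 had no count in control and 375 and 487 counts at 0.5 µg/ml, at least 149-fold higher against a floor of 3 counts per library. Alox12 had 1 control count and 50 counts at 0.5 µg/ml, a ratio of 51.9 with an exact 95% counting interval from 8.90 to 2092. Alox15 stayed at 20 counts or fewer in each library and rose 2.81-fold (edgeR adjusted p = 0.0154). Lta4h, the leukotriene A4 hydrolase gene, was the 1 lower gene, at 83.5 and 81.3 CPM at 0.5 µg/ml, against 151 and 149.7 CPM in control (1.82-fold lower, edgeR adjusted p = 4.78e-08). Alox5, which starts leukotriene synthesis, had at most 4 counts in any library. At 0.5 µg/ml Alox12b was above Ptgs2 by TPM, at 56.1 and 60.0 against 26.5 and 25.7 TPM, and below Ptgs1.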
